A study of Mus musculus with 8 samples.

Results

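The FXYD proteins are 7 small membrane proteins, encoded by Fxyd1 to Fxyd7, and their genes were followed here in mouse colon tumors and normal colon. Members were taken as every probe of the deposited value table whose gene name in the array files is one of those symbols, which gave 9 probes of 41174. Fxyd1 and Fxyd6 had 2 probes each and the other 5 genes had 1. The family was chosen by the measured rise of Fxyd5 in the tumors, so the differences between tumor and normal below are a description of the members. Where a member is said to be called or not, this too is description and not a test of the member.

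FXYD proteins typically cross the membrane once and carry the short motif, Phe-X-Tyr-Asp, that names the family. They sit beside the alpha and beta subunits of the sodium pump (Na,K-ATPase), which drives sodium out of the cell and potassium into it. They change how the pump works, some members by shifting its affinity for those ions. In the colon the pump lies on the basolateral side of the epithelium and supplies the gradient for sodium absorption. Fxyd4 (CHIF, corticosteroid hormone-induced factor) is known from distal colon and kidney collecting duct. Fxyd3 (Mat-8) is known from stomach and colon epithelium and from mammary tumors. Fxyd5 (dysadherin) has a long extracellular part and is known for weakening cell contacts made by E-cadherin. Fxyd1 (phospholemman) is the form of heart and other muscle, Fxyd2 is the gamma subunit of the kidney pump, and Fxyd6 and Fxyd7 are known mainly from the nervous system.

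Expression was measured on 8 one-colour arrays, each hybridised with total RNA of 1 C57BL/6 sample. The 4 tumor samples were colon adenomas with the genotype Tcf4Het ApcHet, and the 4 normal colon samples had the genotype TCF4WT ApcHet, so every animal carried 1 mutant copy of Apc, the gene of a brake on Wnt signalling (the Min allele, per the growth protocol). Tcf4 is the older name of Tcf7l2, a transcription factor that works with beta-catenin. Tumor state and Tcf4 genotype therefore cannot be told apart in any comparison. The protocol names the distal 2.5 cm of colon from littermates as the source of RNA. The sample titles call all 8 samples adult. Neither a more exact age nor the sex of the mice is given in the sources used here. The samples are whole tissue, so fewer cells of a type and less RNA per cell cannot be told apart.

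Values are the log2 values of the deposited table, quantile-normalised between arrays, and a difference is tumor minus normal. Only 4 of the 8 table columns (normals 1 and 2, tumors 1 and 2) could be traced by their values to a scanner file, and 1 of these to the file of its own sample, so which array belongs to which sample is not settled. Column labels were used throughout. The columns labelled normal were not 1 uniform group. Normal 3 had a Pearson correlation over all genes of 0.947 to 0.966 with the tumors and of 0.872 to 0.941 with the normals. Normal 1 had 0.9255 to 0.9561 with the tumors, highest with tumor 4, and 0.9382 to 0.9413 with the normals. Normals 2 and 4 were close to each other (0.9866). Tcf7l2 itself was lower in the columns labelled tumor by 1.75 ± 0.24 (SE), with no overlap of the groups. The colonocyte genes Car4, Slc26a3 and Aqp8 were above the background limit of 5.59 in every sample. Across 21636 genes, 1515 were called higher and 1632 lower by limma at an adjusted p under 0.05. The median difference of all genes was 0.15, and with each column centred on its median the split was 1073 higher and 2021 lower. With 1 sample left out, the genes called ran from 21 (without tumor 3) to 11136 (without normal 3), and were 160 without normal 4. Calls gained or lost in such fits below are to be read beside these counts.

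The promoters of the 4 members whose groups did not overlap are shown first, because 3 of them were higher and 1 was lower in tumors that differ from the controls in a TCF factor. They come from RefSeq (GRCm38.p6), span 250 bases before to 50 after the annotated start, and are written 5′ to 3′ on the gene's strand. Capitals mark the TCF/LEF core CTTTGAT, searched on both strands.

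Fxyd5 (chr7:31042282-31042581, minus strand): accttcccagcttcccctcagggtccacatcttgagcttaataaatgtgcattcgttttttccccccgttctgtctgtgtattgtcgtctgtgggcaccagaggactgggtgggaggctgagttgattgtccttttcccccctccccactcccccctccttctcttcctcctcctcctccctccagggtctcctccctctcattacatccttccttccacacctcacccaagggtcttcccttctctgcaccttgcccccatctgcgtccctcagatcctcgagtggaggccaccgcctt

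Fxyd3 (chr7:31076648-31076947, minus strand): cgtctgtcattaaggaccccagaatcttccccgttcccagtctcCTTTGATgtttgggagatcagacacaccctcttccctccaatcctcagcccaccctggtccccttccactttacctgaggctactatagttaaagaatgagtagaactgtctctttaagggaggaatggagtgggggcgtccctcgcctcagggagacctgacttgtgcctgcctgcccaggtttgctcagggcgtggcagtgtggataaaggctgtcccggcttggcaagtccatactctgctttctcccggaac

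Fxyd6 (chr9:45369935-45370234, plus strand): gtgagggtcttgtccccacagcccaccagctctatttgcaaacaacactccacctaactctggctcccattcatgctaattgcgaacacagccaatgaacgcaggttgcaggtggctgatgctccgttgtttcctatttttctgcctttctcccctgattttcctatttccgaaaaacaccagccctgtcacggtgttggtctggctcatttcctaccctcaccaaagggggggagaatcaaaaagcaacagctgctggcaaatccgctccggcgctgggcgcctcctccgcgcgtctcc

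Fxyd4 (chr6:117937286-117937585, minus strand): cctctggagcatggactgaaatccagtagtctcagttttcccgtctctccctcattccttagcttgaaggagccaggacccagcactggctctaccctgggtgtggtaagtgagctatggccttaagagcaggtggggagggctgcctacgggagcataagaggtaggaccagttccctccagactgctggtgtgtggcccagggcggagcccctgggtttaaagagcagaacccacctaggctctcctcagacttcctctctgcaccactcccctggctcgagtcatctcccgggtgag

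The core was found once, in Fxyd3, 206 bases before the start. It occurs in 3.73% of the 32851 promoters of that length in the table. The half-site AGAACA of the corticosteroid receptors, searched on both strands because Fxyd4 is named for its hormone response, was in none of these 4 sequences and in 19.0% of all promoters. Of the 7 members, 5 were matched in the table, Fxyd1 being the fifth, with neither motif. Fxyd2 and Fxyd7 had no entry.

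Of the 7 genes, 6 passed the filter on dim probes and were in the fit over all genes. Fxyd5 and Fxyd6 were called, both higher in tumors, beside 7.00% of all genes called higher and 7.54% called lower. The groups did not overlap for 4 members, 3 higher (Fxyd3, Fxyd5 and Fxyd6) and 1 lower (Fxyd4), beside 23.8% of all genes, 11.9% higher and 11.9% lower. Since the contrast chose the family, nothing is read from these counts or from the calls of single members. With the sample number of the titles as a block, Fxyd5 and Fxyd6 were again the members called, beside 3.61% of genes higher and 5.08% lower.

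**Figure D1:**
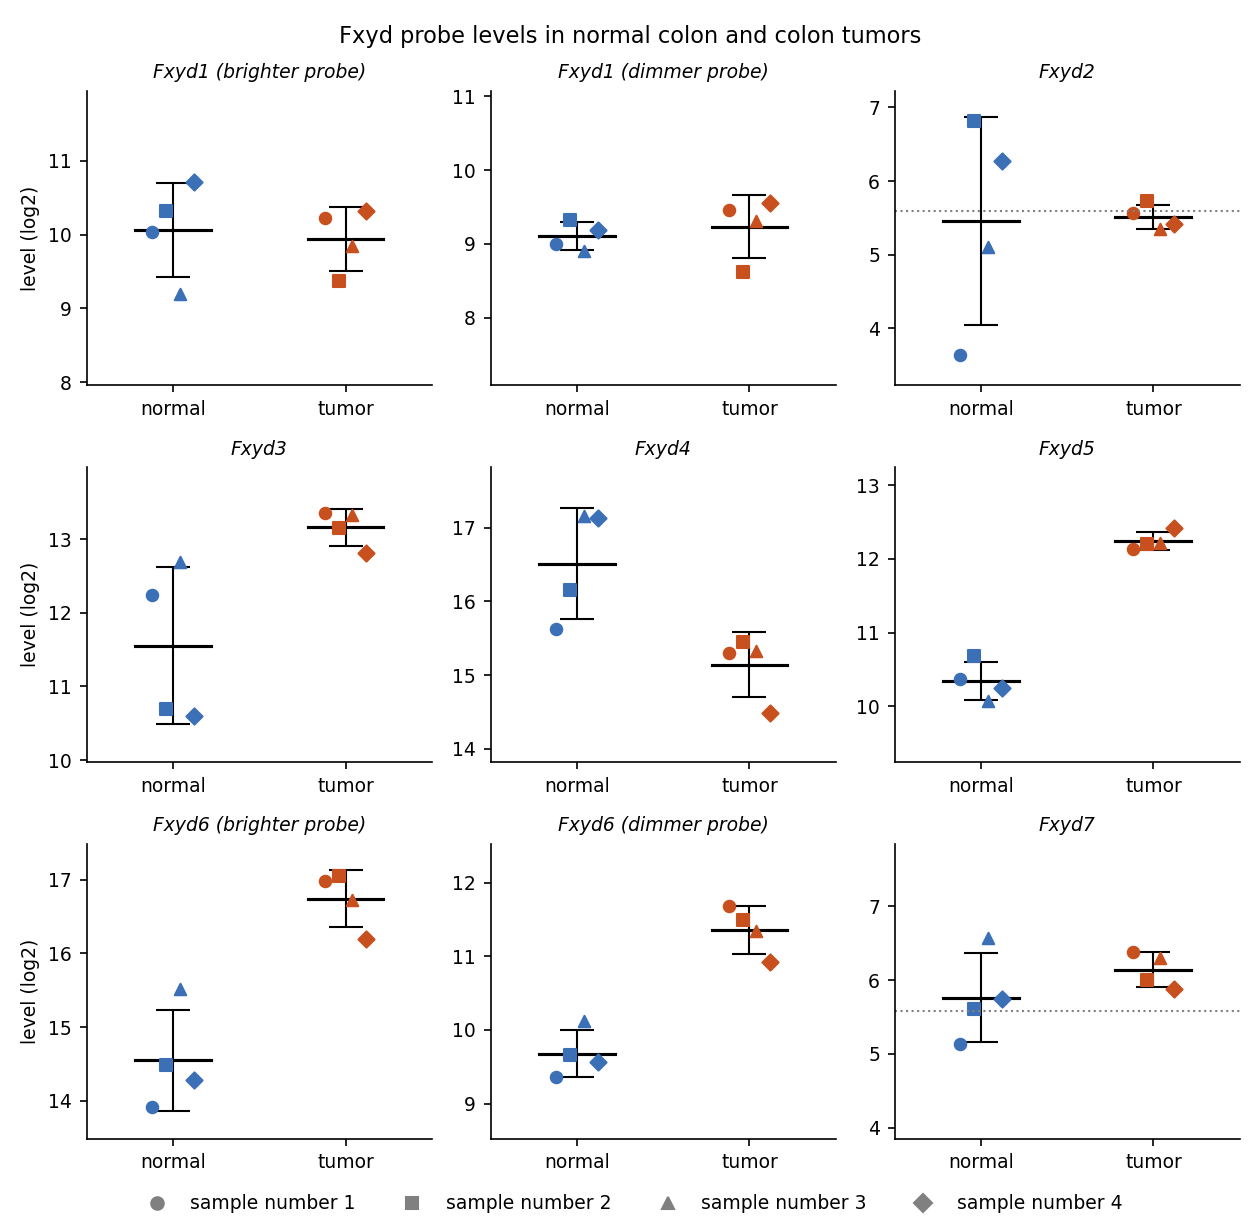
Levels (log2, each panel spans 4 units) of the 9 Fxyd probes in 4 normal colon samples (blue) and 4 colon tumors (orange), with the mean and SD as black lines and the background limit of 5.59 dotted. All tumors lie above all normals for Fxyd3, Fxyd5 and both Fxyd6 probes and below them for Fxyd4, while Fxyd1, Fxyd2 and Fxyd7 overlap.

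Fxyd5 was the member with the widest gap between the groups. Its probe lies on chromosome 7 at 30741565 to 30741624 (mm8, minus strand). The normals were at 10.37, 10.68, 10.07 and 10.25, and the tumors at 12.14, 12.20, 12.22 and 12.42 (samples 1 to 4). The lowest tumor stood 1.46 above the highest normal, and the 4 tumors lay within a narrow band. Means were 10.34 ± 0.25 in normals and 12.25 ± 0.12 in tumors (SD, n = 4), a difference of 1.90 ± 0.16 (SE), or 3.74-fold. The difference was 1.77, 1.53, 2.15 and 2.17 in pairs 1 to 4. Without the sample labelled normal 3 it was 1.81. Fxyd5 in that sample was the lowest of the 8, whereas over all genes that column was close to the tumors.

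Fxyd5 is known from leukocytes and endothelium as well as from epithelium, and several leukocyte markers were also higher in tumors. Of 8 leukocyte markers, 5 rose and 0 fell, with a median difference of 1.10 against 0.15 over all genes. The count was 2 with the block and 2 with columns centred on their median, 1 without tumor 1, 2 without tumor 4, and 0 without normal 1, normal 4, tumor 2 or tumor 3. Their mean level was 9.67 to 11.50 in normals, lowest in normal 3, and 11.83 to 12.00 in tumors. The tetraspanin Cd53 rose by 1.53 ± 0.36, the actin regulator Coro1a by 1.45 ± 0.37 and Cd52 by 1.25 ± 0.26. Their adjusted p was 0.0328, 0.0416 and 0.0243 in limma's fit, and 0.0537, 0.0791 and 0.055 after blocking on the pairs. The beta 2 integrin Itgb2 rose by 1.19 ± 0.20 (adjusted p = 0.0171). Each of these 4 calls was lost without normal 1, normal 4, tumor 2 or tumor 3, and Coro1a held only without normal 3. With 1 sample left out at a time the adjusted p of the 4 genes ran from 0.00610 to 0.117. Of 6 endothelial markers 1 rose, the cadherin Cdh5, by 1.14 ± 0.21 (adjusted p = 0.0204; lost without the same 4 samples, 0.0122 to 0.0669), and the list mean was 9.16 to 9.87 in normals and 10.08 to 10.55 in tumors. The other 5 endothelial markers did not pass, among them Pecam1 (-0.44) and Kdr (0.20), and without normal 3 the list had 4 calls. Of 8 fibroblast markers 0 passed in either direction, with list means of 11.40 to 14.01 in normals and 13.14 to 14.24 in tumors. The part of these cells in the Fxyd5 difference was not tested.

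Most genes on a list of those named with dysadherin did not pass. Of 13 adhesion and mesenchymal genes, 2 rose, 0 fell and 11 did not pass (median difference 0.31). Without normal 3 the list had 7 calls, and without normal 4, tumor 2 or tumor 3 it had 0. The chemokine Ccl2, which attracts monocytes, rose by 2.73 ± 0.64 (adjusted p = 0.0329, 0.0542 with the block). Vimentin, Vim, the intermediate filament of mesenchymal cells, rose by 1.63 ± 0.26 (adjusted p = 0.0167). E-cadherin, Cdh1, was at 17.38 ± 0.42 in normals and 16.89 ± 0.17 in tumors (SD, n = 4), a difference of -0.49 ± 0.23 that did not pass (adjusted p = 0.174). Ccl2 was lost as a call without any 1 of 5 samples (normals 1 and 4, tumors 1, 2 and 3), and Vim without normal 4, tumor 2 or tumor 3. Over the left-out samples their adjusted p ran from 0.0215 to 0.0920 and from 0.00807 to 0.0626.

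The 5 genes whose levels followed Fxyd5 most closely over the 8 samples were Col18a1 (a basement membrane collagen, r = 0.987), Srgn (serglycin, the proteoglycan of leukocyte granules, r = 0.987), Pla1a (a phospholipase, r = 0.987), Cd68 (a macrophage lysosomal protein, r = 0.986) and Igf1 (a growth factor, r = 0.985). These are Pearson correlations, ranked among 13667 genes, and the group difference sets most of their size. The 5 differed between groups by 1.61 to 2.61.

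Fxyd6 was higher in tumors on both of its probes, and the brighter one had the largest difference in the family. That probe lies on chromosome 9 at 45147046 to 45147105 (mm8, plus strand), and normals were at 13.92, 14.49, 15.51 and 14.28 against tumors at 16.98, 17.05, 16.72 and 16.20. Normal 3 was the highest normal and tumor 4 the lowest tumor, still 0.69 apart. Means were 14.55 ± 0.68 and 16.74 ± 0.39 (SD, n = 4), a difference of 2.19 ± 0.36 (SE), or 4.55-fold. The call was lost without normal 4 (2.10), tumor 2 (2.08) or tumor 3 (2.19), in fits that called 160, 379 and 21 genes in all. Without normal 3 the difference was 2.51.

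The dimmer Fxyd6 probe, which the file places on chromosome 9 at 45141817 to 45142585 (mm8, a span of 769 bases), gave the same order of groups. Normals were at 9.37, 9.66, 10.12 and 9.56 and tumors at 11.68, 11.49, 11.35 and 10.92, a difference of 1.68 ± 0.23 (SE, from the fit over all kept probes). On both probes the pair difference was largest in pair 1 (3.06 and 2.32) and smallest in pair 3 (1.21 and 1.23). Of 9 enteric neuron and glia markers tested, 0 passed in either direction (1 fell with the block), and their mean level overlapped between normals (8.85 to 9.50) and tumors (8.64 to 9.29).

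Fxyd3, one of the forms known from gut epithelium, was higher in every tumor but did not pass in the fit over all genes. Its probe is placed on chromosome 7 at 30780106 to 30780955 (mm8, minus strand). The normals fell into a higher pair, 12.25 in normal 1 and 12.68 in normal 3, and a lower pair, 10.69 in normal 2 and 10.60 in normal 4. The tumors were at 13.35, 13.14, 13.33 and 12.81, and the lowest stood 0.13 above the highest normal. Means were 11.56 ± 1.07 and 13.16 ± 0.25 (SD, n = 4), a difference of 1.60 ± 0.50 (SE), or 3.04-fold. The pair differences showed the split of the normals, at 1.10, 2.45, 0.65 and 2.21. Without normal 3 the difference was 1.98 and Fxyd3 was called, in a fit that called 11136 of 21636 genes.

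Fxyd4, the colon form, was the member that was lower in tumors. Its probe lies on chromosome 6 at 117899204 to 117899263 (mm8, minus strand). Normals were at 15.62, 16.15, 17.15 and 17.13 and tumors at 15.29, 15.45, 15.33 and 14.49. The lowest normal, normal 1, stood 0.18 above the highest tumor, and tumor 4 was well below the other tumors. Means were 16.51 ± 0.75 and 15.14 ± 0.44 (SD, n = 4), a difference of -1.37 ± 0.40 (SE), or 2.59-fold lower, which did not pass. It was uneven over the pairs, at -0.33, -0.70, -1.82 and -2.64. Pairs 1 and 2, the traced ones, each lie on 1 slide, and over their 4 columns the difference was -0.52. Without normal 3 it was -1.16 and was called, in the fit that called 11136 of 21636 genes.

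**Figure D2:**
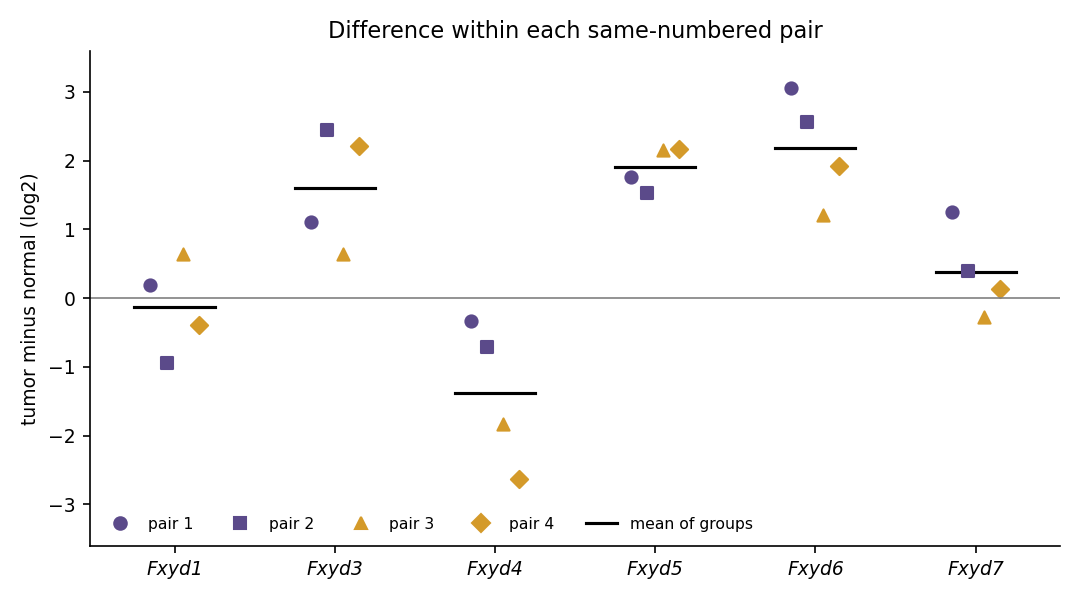
Tumor minus normal difference (log2) within each of the 4 same-numbered pairs for the 6 Fxyd genes tested, brighter probe where there were 2, with the difference of group means as a black line. Purple pairs (1 and 2) were traced to scanner files and gold pairs (3 and 4) were not. Fxyd5 ranges from 1.53 to 2.17, while Fxyd4 runs from -0.33 in pair 1 to -2.64 in pair 4.

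The genes most like Fxyd4 over the 8 samples had lower correlations than those most like Fxyd5, and the group difference enters both sets. They were Lhx2 (a homeobox gene, r = 0.959), Lor (loricrin, of the cornified cell envelope, r = 0.953), Fbxo34 (r = 0.939), Rabgef1 (r = 0.930) and Ulk4 (r = 0.925), with group differences from -2.16 to -0.30. Absorptive colonocyte markers fell, 5 of 8 with 0 higher (3 when blocked) and a median difference of -1.74. The list had 1 call without tumor 2 and 0 without normal 1, normal 2, normal 4 or tumor 3. The largest differences were -3.65 ± 0.62 for Cyp2c55, a cytochrome P450 (adjusted p = 0.018), and -2.51 ± 0.46 for Slc26a3, which exchanges chloride for bicarbonate (adjusted p = 0.02). The differences were -2.17 ± 0.42 for the carbonic anhydrase Car4 (adjusted p = 0.0217) and -2.04 ± 0.47 for the water channel Aqp8 (adjusted p = 0.0317, 0.0518 when blocked). Each of the 4 was lost without normal 1, normal 2, normal 4 or tumor 3, and over the 8 left-out samples their adjusted p ran from 0.00890 to 0.0898. List means ran from 16.53 to 16.94 in normals and from 14.25 to 15.88 in tumors. Of 8 markers of all epithelium 1 fell, Cdh17, by 1.02 ± 0.21 (adjusted p = 0.0248, 0.0528 when blocked), the list having 6 calls without normal 3, and Cdh17 was called in 2 of the 8 fits with a sample left out, those without normal 3 or tumor 4. Of 7 goblet cell markers 0 passed, with list means of 16.92 to 17.65 in normals and 16.50 to 17.57 in tumors. The part of these cell types in the Fxyd4 difference was not tested.

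Fxyd1, the muscle form, did not separate the groups. Its brighter probe, on chromosome 7 at 30761791 to 30762188 (mm8, minus strand), was at 10.04, 10.32, 9.20 and 10.71 in normals and 10.22, 9.37, 9.85 and 10.32 in tumors, a difference of -0.13 ± 0.36 (SE). The dimmer probe, at 30760668 to 30760727, gave 0.13 ± 0.23 (SE, fit over all kept probes), so the sign depended on the probe. The lowest sample was normal 3 on the brighter probe, but tumor 2 on the dimmer one (8.61, with normal 3 at 8.90). Normal 3 also had the lowest mean of the 8 smooth muscle markers (13.69). The remaining normals were at 14.65 to 15.93 for that list and the tumors at 13.99 to 15.14. None of those 8 markers passed in either direction. The part of muscle in the Fxyd1 levels was not tested.

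Fxyd2 and Fxyd7 were dim. The kidney form Fxyd2, read on chromosome 9 at 45159111 to 45159325 (mm8), was at 3.64, 6.82, 5.10 and 6.27 in normals and 5.56, 5.72, 5.35 and 5.42 in tumors. It was below the limit of 5.59 in 2 normals and 3 tumors and was not in the fit. Fxyd7, on chromosome 7 at 30753353 to 30753508 (mm8), was at 5.13, 5.61, 6.57 and 5.75 in normals and 6.38, 6.01, 6.30 and 5.88 in tumors, a difference of 0.38 ± 0.30 (SE) with groups that overlapped. For the column normal 1, the 95th percentile of probes flagged as dim was 7.71, so levels of this size cannot be told from background there.

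Among the pump genes described here, the beta subunit Atp1b1 and the proton-potassium pump subunit Atp12a fell. Of 15 pump genes listed, 13 were tested, of which 0 rose, 2 fell and 11 did not pass, with a median difference of 0.37 against 0.15 over all genes. Without normal 3 there were 7 calls, 1 without normal 2 or tumor 1, and 0 without normal 1, normal 4, tumor 2 or tumor 3. Atp1b1, which carries the pump to the membrane, was at 16.50, 16.64, 16.12 and 16.81 in normals and 15.65, 15.53, 15.64 and 15.84 in tumors. The groups did not overlap, and Atp1b1 fell by 0.85 ± 0.18 (adjusted p = 0.0242, 0.0477 when blocked). The colonic proton-potassium pump subunit Atp12a, which also pairs with a beta subunit, fell by 1.92 ± 0.37 (adjusted p = 0.0217, 0.061 when blocked). Its mean was 14.23 ± 0.65 in normals and 12.31 ± 0.48 in tumors (SD, n = 4). Atp1b1 was called without normal 3 or tumor 4 (-0.99 and -0.91) and lost without any of the other 6 samples, and Atp12a was lost without normal 1 or 4 or tumor 2 or 3. Their adjusted p over the 8 left-out samples ran from 0.00428 to 0.0788 and from 0.0144 to 0.0714.

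The other pump genes described did not pass. The beta subunit Atp1b3 was 0.30 ± 0.12 higher with no overlap of the groups (adjusted p = 0.132). The glial beta subunit Atp1b2 differed by 0.37 ± 0.30. The gastric proton pump subunits Atp4a and Atp4b differed by 1.76 ± 0.63 and 1.04 ± 0.57, and Nkain1, Nkain2, Nkain3 and Nkain4, whose products bind pump beta subunits, by 0.02 to 1.21. Some of these were dim. Nkain2, which differed by 1.21, was below the limit of 5.59 in normals 2 and 4 (3.22 and 5.40). In normal 1 it was at 7.04, under that column's 95th percentile of dim-flagged probes (7.71). Atp4a was at 6.62 and 6.48 in normals 2 and 4.

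Genes of aldosterone-responsive sodium uptake, the route that works with the pump in distal colon, were mostly lower. Of 11 tested, 6 fell, 0 rose and 5 did not pass (8 fell with the block), with a median difference of -1.11. There were 4 calls without tumor 1, 1 without normal 2, and 0 without normal 1, normal 4, tumor 2 or tumor 3. Hsd11b2, which protects the aldosterone receptor from glucocorticoids, fell by 1.96 ± 0.33 (adjusted p = 0.0179). The sodium-proton exchanger Slc9a2 fell by 1.90 ± 0.43 (adjusted p = 0.0302), and the kinase Sgk1 fell by 1.68 ± 0.33 (adjusted p = 0.0228). The sodium channel subunit Scnn1a fell by 1.86 ± 0.33 (adjusted p = 0.0194). Each of these 4 calls held without normal 3, tumor 1 or tumor 4 and was lost without any of the other 5 samples, with an adjusted p of 0.00228 to 0.0895 over the 8. The mean level of the list was 12.59 to 13.23 in normals and 11.60 to 12.16 in tumors.

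**Figure D3:**
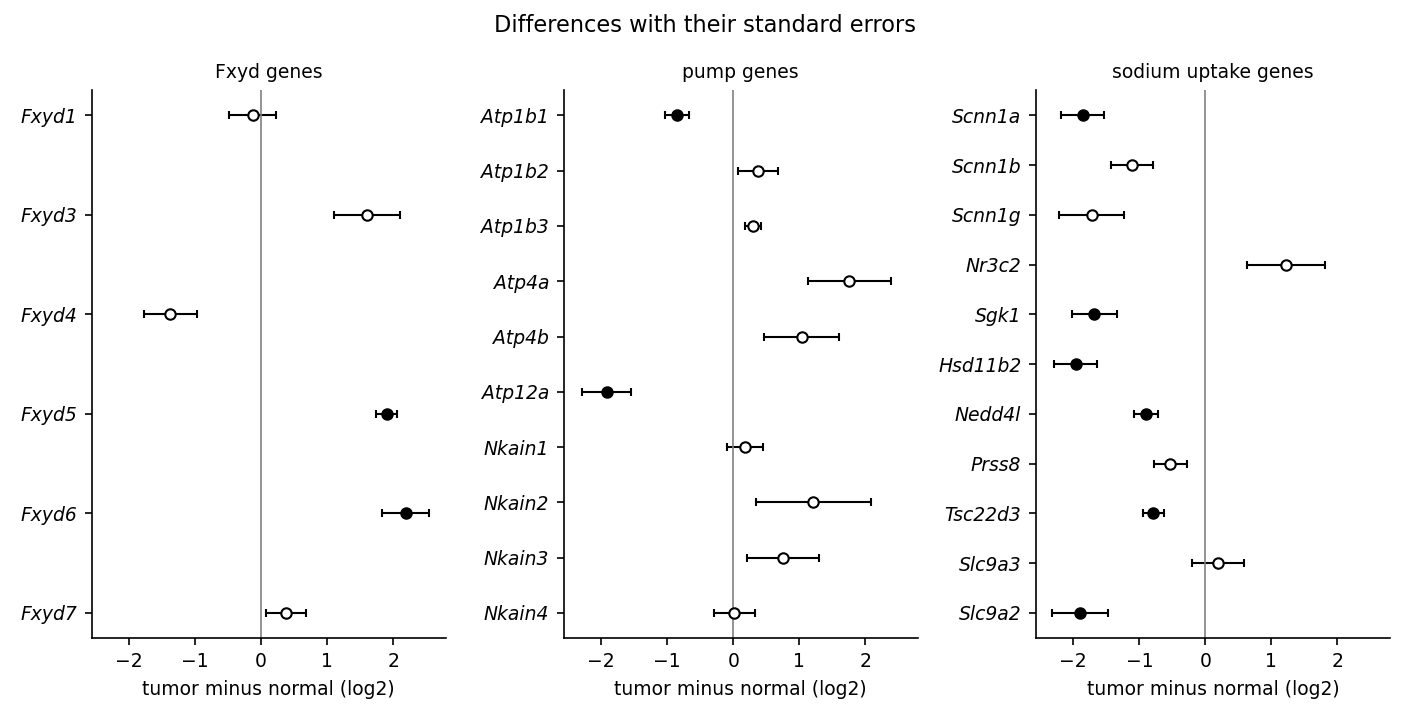
Tumor minus normal difference (log2) with its SE for the 6 Fxyd genes tested, 10 pump genes and 11 sodium uptake genes, from the limma fit over all genes, where filled points passed an adjusted p under 0.05. Fxyd5 and Fxyd6 lie near 2 while Atp1b1 lies between -1 and 0, and 6 of the uptake genes are filled, all on the negative side.

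The scanner files separate the members in another way. Fxyd4 had a processed signal of 31604 to 97458 in the 4 files traced to a table column and of 38.0 to 617 in the 4 files traced to none, a gap of at least 51.2-fold, and was flagged well above background in 3 of those 4. In units of log2 signal minus the array's 75th percentile these are 3.88 to 4.46 and -6.48 to -1.84. The same 4 untraced files had a mean of 1.44 to 4.27 over 8 small intestine enterocyte genes, against -3.03 to -0.55 in the traced ones. Fxyd5 in untraced files (-0.29 to 0.17) lay within the traced range (-1.14 to 0.84). The brighter Fxyd6 probe was at 2.06 to 2.65 in untraced files, 2.66 and 2.96 in the files behind columns normal 1 and normal 2, and 5.58 and 5.57 in those behind columns tumor 1 and tumor 2. These files are not groups of the study, and the values are given as they stand.

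**Figure D4:**
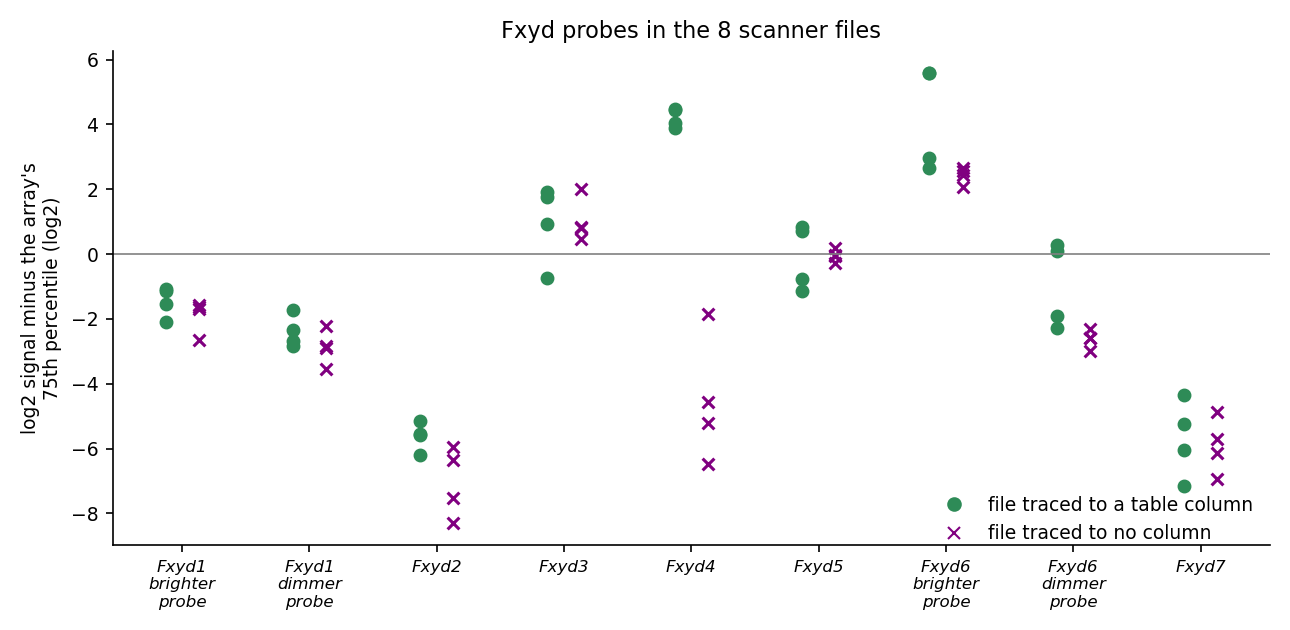
Log2 processed signal minus the array's 75th percentile for the 9 Fxyd probes in the 8 scanner files, green circles for the 4 files traced to a table column and purple crosses for the 4 traced to none. Fxyd4 separates the sets, at 3.88 to 4.46 against -6.48 to -1.84, and Fxyd5 does not.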

How the data were processed

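Tissue RNA of 4 tumors and 4 normals was read on Agilent arrays (design 014868), whose probes are placed on mm8. The scanner files give intensity values, per the file headers background-subtracted and detrended by Feature Extraction 9.5.1.1 and not normalised between arrays. The submitters' processing notes name version 10.1.1.1. The deposited value table was found to be log2 and quantile-normalised by the authors, since its columns share 1 distribution (median 8.51) and follow the log2 intensity of the traced files. Since columns and scanner files disagree on sample identity, column labels were used.

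Probes at or above 5.59 on at least 4 of 8 arrays were kept (31866). To set that limit, the 95th percentile of dim-flagged probes was taken in each of the 4 traced columns and the median used. Names came from RefSeq accessions (24367 probes), symbols (6307) or synonyms (2425), and for 8075 probes from the file alone. Each gene was represented by its brightest kept probe. The comparison used limma 3.58.1 under R 4.3.3 (2-sided, Benjamini-Hochberg over all genes, tested on simulated data). Nothing in the labels says whether samples numbered alike share a litter. Same-numbered samples deviated together from their group means (Pearson 0.24, 0.36, 0.53 and 0.36 over 21564 genes). The main comparison was unpaired. The sample number served as a block in an alternative fit, and member differences are also given by same-numbered pair. The values do not single out these pairs: tumor 4 with normal 2 gave 0.38, tumor 2 with normal 4 0.35 and tumor 1 with normal 3 0.28. With 4 arrays a group, their number limits the precision, and p-values measure only the spread between these samples.

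Members and lists were chosen with earlier results of these data known. Named were every Fxyd probe, all pump genes tested (except some that are not reported here), up to 4 called genes with the largest difference in each other list, and the 5 genes most correlated with Fxyd5 and with Fxyd4.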

Additional observations from a re-analysis of the deposited data

Results flagged for a closer look

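In 4 of 78 groups of 4 samples, 1 sample lay far from the other 3 by Dixon's 95% criterion for the gap over the range, about the number chance gives, 1 in 20. For Fxyd4, tumor 4 was at 14.49 with the other tumors at 15.29 to 15.45. For the sodium channel subunit Scnn1a, normal 3 was at 14.11 with the other normals at 14.66 to 14.69. For Hsd11b2, normal 3 was at 11.02 against 12.03 to 12.15. For the exchanger Slc26a3, normal 4 was at 16.67 against 16.10 to 16.14.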

How the results depend on the processing

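The count of 3147 genes called by limma changed most with the samples and the source of the values. It was 1881 with the sample pairs as a replicate block, and with 1 sample left out it ran from 21 (without tumor 3) to 11136 (without normal 3). Scanner files as filed gave 0 genes, also with slide as a block and after normexp and quantile normalisation, with 433, 324 and 511 at an unadjusted p under 0.05. The 4 traced columns, and their scanner arrays (an alternative chosen after seeing the data), gave 0, with 4817 and 4118. Scanner files as filed turned Fxyd6 to -0.20 (also with slide as a block) and -0.23 (normexp). Under the filed labels the arrays are not those behind the table columns. The file of normal 4, at 5.57 for the brighter Fxyd6 probe, was traced to column tumor 2, and 4 files were traced to no column. All 8 scanner files as filed gave 0.027 (0.034 with normexp) for Fxyd3, -4.51 and -3.84 for Fxyd4, and 0.40 and 0.38 for Fxyd5. The 4 traced columns gave -0.52 for Fxyd4, 1.65 for Fxyd5 and 2.81 for Fxyd6, and their scanner arrays -0.50 for Fxyd4, 2.76 for Fxyd6 and 1.79 for Fxyd7. The Fxyd7 probe was not flagged well above background in the files behind columns normal 1 and normal 2 (signals 38.4 and 31.2). Why the values moved over the traced columns was not tested. With 1 sample left out, differences ran from -0.41 to 0.09 for Fxyd1, 1.28 to 1.98 for Fxyd3, -1.67 to -1.16 for Fxyd4, 1.81 to 2.01 for Fxyd5, 1.98 to 2.51 for Fxyd6 and 0.17 to 0.65 for Fxyd7. Among the members the block changed no call. Centring columns on their median gave 1.47 for Fxyd3, -1.51 for Fxyd4, 1.77 for Fxyd5 and 2.05 for Fxyd6. Of 216 recomputed list counts, 102 were more than 1.5 times away from the main count.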

Other observations

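In RefSeq order, Fxyd5, Fxyd7, Fxyd1 and Fxyd3 lie within 1 cluster on chromosome 7, with Lgi4 between the last pair, and Fxyd6 and Fxyd2 are neighbours on chromosome 9. Between Fxyd5 and Fxyd3, the genes Fxyd7, Fxyd1 and Lgi4 differed by 0.38 ± 0.30, -0.13 ± 0.36 and 0.40 ± 0.13 (SE). None of the 3 passed, nor did Fxyd3, and the groups did not overlap for Lgi4. Differences between these genes were not tested. Outside it, the genes next to Fxyd5 and Fxyd3 were Fam187b (-0.13 ± 0.25) and the protease gene Hpn (0.23 ± 0.35), and neither passed. Near Fxyd6, the interleukin-10 receptor gene Il10ra, a leukocyte gene, was called (0.94 ± 0.25, adjusted p = 0.0457, 0.0547 when blocked), but with 1 sample left out it held only without normal 3 (0.0219 to 0.121). Beside Fxyd6, the protease gene Tmprss13 differed by 0.71 ± 0.27 (adjusted p = 0.119).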
